A study of Mus musculus with 10 samples.

Results

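Mitochondrial ribosomal protein genes were compared between leukaemic and normal mice in sorted osteoblastic lineage cells, here called OBCs, which make bone or give rise to cells that do. The members were taken by name, as every gene whose symbol begins with Mrpl or Mrps followed by a number, and 77 of the 19938 genes with a probe set of their own met that rule, 48 named for the large and 29 for the small ribosomal subunit. The BA group held 5 diseased Scl-tTA::TRE-BCR/ABL mice and the control group 5 mice of matched age, whose genotype the labels do not give. Both groups were C57BL/6, both were taken off doxycycline at 5 weeks of age, and both were harvested 5 to 6 weeks later, with 1 array for each mouse. In BA mice the loss of doxycycline lets a transactivator turn on the BCR/ABL oncogene, and a myeloproliferative neoplasm develops. The transactivator is driven by Scl sequences, known for their activity in blood-forming cells, so the model is one of blood-cell disease around the bone lineage. OBCs were sorted from collagenase-digested bone after staining for lineage antigens, CD45, CD31, Sca-1 and CD51, and RNA of 500 to 2300 cells was amplified for each Affymetrix mouse Gene ST array. All values are log2 levels as deposited, 1 probe set for each gene, and differences are BA minus control.

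Mitochondria keep a small genome of their own, which encodes core subunits of the respiratory chain, and they translate its messages on a ribosome separate from the one in the cytosol. The RNA of that ribosome is made inside the organelle, while its proteins are encoded in the nucleus, made in the cytosol and imported. Some of these proteins descend from the proteins of bacterial ribosomes and others were added in the mitochondrial lineage. Osteoblasts secrete large amounts of collagen matrix, and their energy supply draws on both glycolysis and respiration.

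Promoter sequence, which the naming rule did not use, was searched for motifs near the members' start sites. RefSeq promoter windows (GRCm38.p6, 250 bases before to 50 bases after a start site) were found for 68 of the 77 members. Each was searched on both strands for the 8-letter ETS motif CCGGAAGT (bound by GABP, also called NRF-2), the NRF1 motif GCATGCGC and the YY1 motif AAGATGGC, motifs of factors known for nuclear-encoded mitochondrial genes. The ETS motif was present in 12 of 68 members (17.6%), against 6.03% of the 15563 tested genes with a window. The NRF1 motif was present in 8 members (11.8%), against 4.29% of those genes. The YY1 motif was present in 12 members (17.6%), against 3.77%. Of the members with a window, 29 (42.6%) held at least 1 of these 3 motifs, against 13.1% of all genes with a window, so most members held none of them. The E-box CACGTG, read by MYC and its relatives, was found in 5 members (7.35%), against 9.52%, and the TATA letters TATAAA also in 5, against 13.6%. No match of 1 motif overlapped a match of another in the members, but the NRF1 motif nearly mirrors itself, so 1 stretch can match on both strands. Base composition differed little, with a median of 58.5% G and C in members' windows and 57.7% over all. These matches are descriptions of letters and were not tested as binding sites.

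Sites of members that are described one by one below are shown so that the sequences can be set beside the levels. Each is printed in the direction of its gene, with the motif in capitals, and named with its position. The ETS motif stood wholly before the start site in 10 of 12 members, Mrpl52 being an exception among those shown:

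Mrpl51 at chr6:125192099-125192128, plus strand: caggggctaaaCCGGAAGTatttgactgga
Mrpl52 at chr14:54426899-54426928, plus strand: gggccacgcccACTTCCGGttcccttgctc
Mrps18c at chr5:100798591-100798620, plus strand: cgggtcacgtgACTTCCGGcccgggaagcg
Mrps27 at chr13:99344726-99344755, plus strand: gtggtaggaccACTTCCGGcggaggcgggc

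The NRF1 motif was found in these members, 1 site being shown for each:

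Mrpl9 at chr3:94443297-94443326, plus strand: gaggcgcagctGCGCATGCgcggggtcctt
Mrpl10 at chr11:97041437-97041466, plus strand: cccagctccacGCATGCGCatagcggccct
Mrpl39 at chr16:84735349-84735378, minus strand: aggagaggcgcGCATGCGCccccgcgtggc
Mrps18b at chr17:35916645-35916674, minus strand: aacggcccgacGCATGCGCactgggagcac

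Mrpl32 had the most NRF1 matches, 4 in its window, and the 100 bases before its start (chr13:14613038-14613137, minus strand) show them in capitals, 2 of them overlapping in the first run:

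Mrpl32: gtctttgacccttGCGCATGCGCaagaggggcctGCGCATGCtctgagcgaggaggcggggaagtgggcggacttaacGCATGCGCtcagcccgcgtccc

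The YY1 motif lay wholly after the start site in 8 of its 12 members, with a median first base at position 16 from the start, as in the first 3 of these:

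Mrpl49 at chr19:6057721-6057750, minus strand: gttgaggcgccAAGATGGCagcagcggtgt
Mrps18a at chr17:46111004-46111033, plus strand: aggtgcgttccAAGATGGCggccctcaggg
Mrps27 at chr13:99344789-99344818, plus strand: tggtgcgctccAAGATGGCggctcccatgg
Mrpl32 at chr13:14613261-14613287, minus strand: cgcgctctGCCATCTTtacccggaaag

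**Figure D1:**
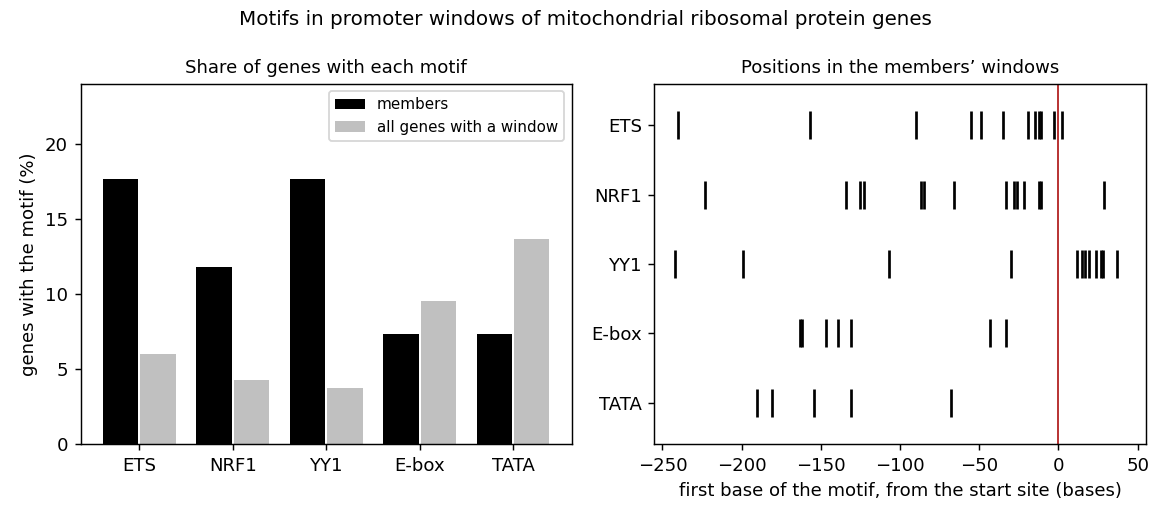
Left, the share of genes (%) with each motif among the 68 members with a window (black) and all 15563 tested genes with a window (grey); right, the first base of each match in members' windows in bases from the start site (red line), a site near several annotated starts having a mark for each. ETS, NRF1 and YY1 stood at 17.6%, 11.8% and 17.6% of members, against 6.03%, 4.29% and 3.77% of all genes, and most YY1 matches lie just after the start.

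In BA against control OBCs, 0 of the 77 members passed an adjusted p of 0.05 in limma (Benjamini-Hochberg, all 19938 genes), and of all genes 1 passed (0.00502%). At an unadjusted p under 0.05, 1 of 77 members passed (1.30%), against 9.40% of all genes. No member had its 5 BA arrays wholly above or wholly below its 5 control arrays, against 1.67% of all genes. The lowest adjusted p among members was 0.477. The members had no call, then, and a smaller share of low p-values than the genes of the array as a whole.

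Differences were small in most members and went both ways. In BA OBCs 43 members had a higher mean and 34 a lower one, so 55.8% were higher, against 37.9% of all genes and 49.8% of genes above the median level. The median difference was 0.05, with quartiles of -0.12 and 0.30 and a range of -0.90 to 1.57. Over all genes the median difference was -0.06, and over genes above the median level it was -0.002. The median of the members was 0.02 without BA replicate 5 and 0.09 without BA replicate 1. Mrpl51, Mrpl23 and Mrps33 were the 3 members whose means differed by more than 1, a 2-fold difference, and all 3 were higher in BA. That is 3.90% of the members, near the 3.62% of genes above the median level, with 2.20% of all genes. Of the 69 members with 1 probe set, 0 differed by that much. The 95% interval of the difference lay wholly within 2-fold for 43 of 77 members (55.8%), against 81.8% of all genes and 71.5% of genes above the median level, so for the other members a 2-fold difference was not bounded by these arrays.

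**Figure D2:**
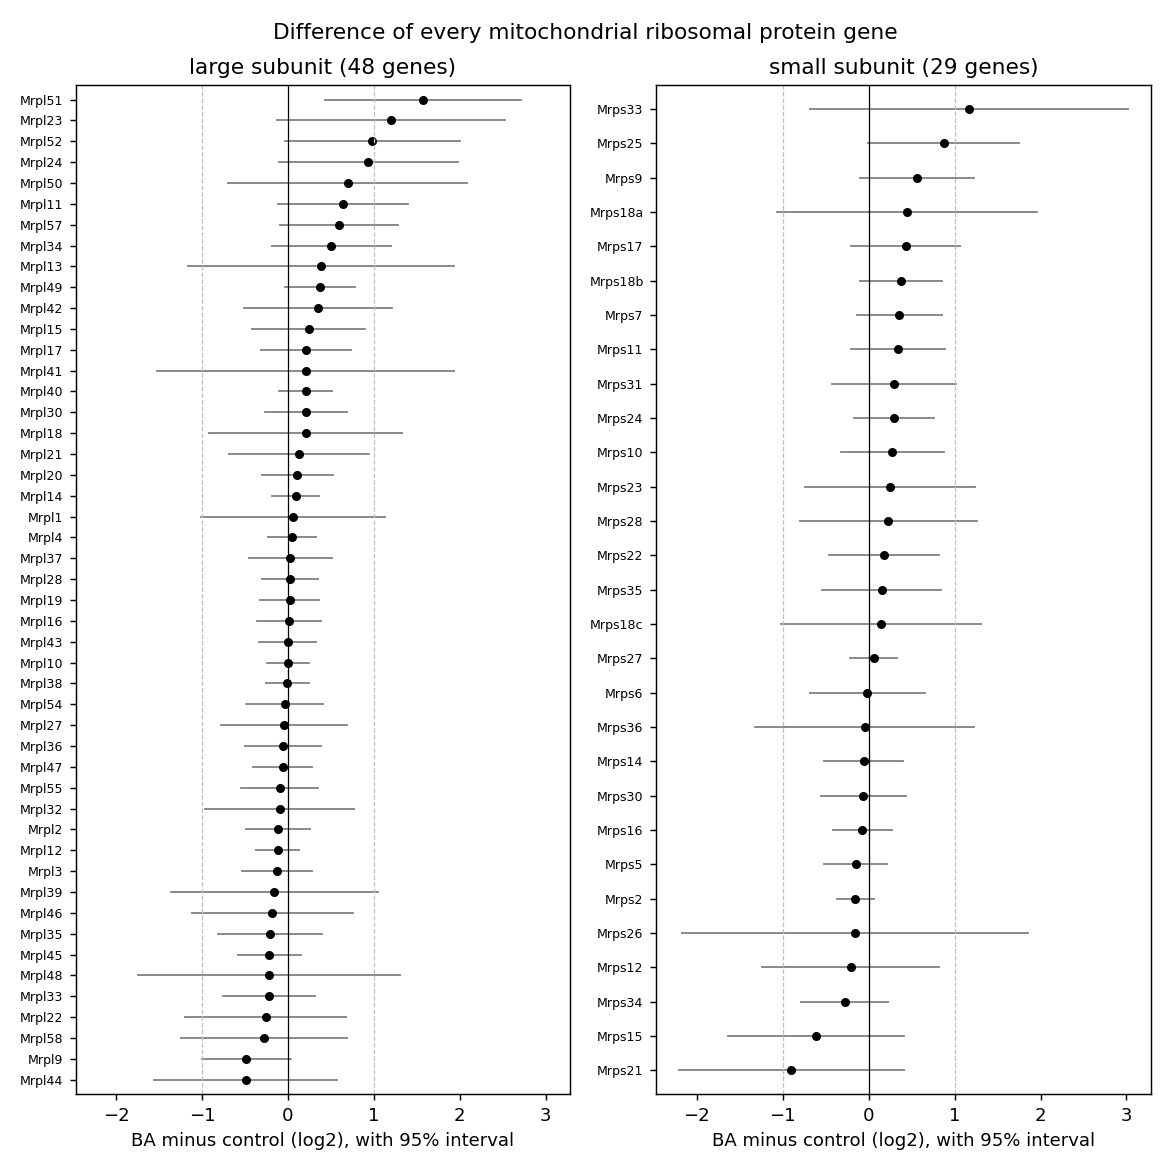
Difference of each member, BA minus control on the log2 scale (point), with its 95% interval from limma (line), for the 48 large-subunit and the 29 small-subunit genes by name, ordered by the difference; dashed lines mark a 2-fold difference. The differences run from -0.90 to 1.57, and the interval of Mrpl51 alone lies wholly on 1 side of 0.

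The mean level over the 77 members was 6.71, 7.00, 6.96, 6.90 and 7.07 in BA OBCs and 6.83, 6.89, 6.83, 6.84 and 6.57 in control OBCs, replicates 1 to 5. It averaged 6.93 ± 0.14 in BA and 6.79 ± 0.13 in control (SD, n = 5 each). Each group had a single low array, BA replicate 1 lying below 4 of the control arrays and control replicate 5 below all others, and the groups overlapped. In bulk RNA of sorted cells, fewer cells of a type and less RNA per cell cannot be told apart.

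**Figure D3:**
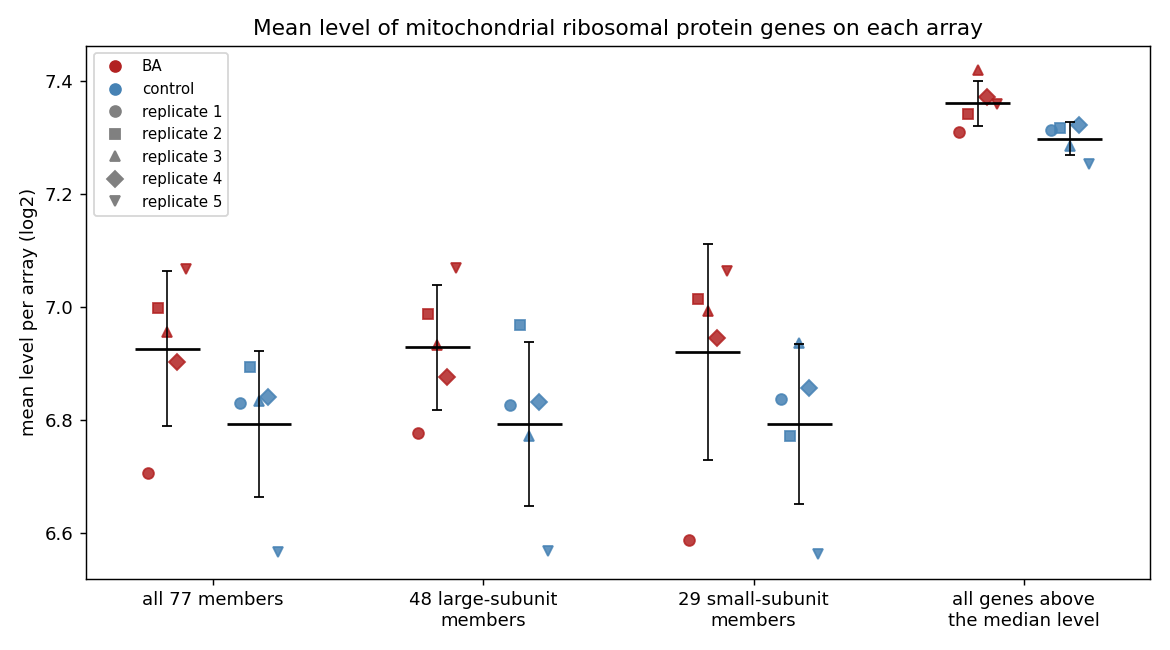
Mean log2 level on each array over the 77 members, the 48 large-subunit members, the 29 small-subunit members and all genes above the median level; symbols mark the replicate, lines the group mean and bars the SD (n = 5). BA replicate 1 (6.71) and control replicate 5 (6.57) are the lowest arrays of their groups over all members, and the groups overlap.

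The subunits gave like pictures. Of the large-subunit members 26 of 48 were higher in BA, with a median difference of 0.02, and of the small-subunit members 17 of 29, with a median of 0.15. By origin, 27 of 48 members with a bacterial counterpart were higher, with a median of 0.04, and 16 of 29 members particular to mitochondria, with a median of 0.06. None of these groups held a member past the adjusted threshold. By name Mrps30 and Mrps18a count here as small-subunit genes, although in human mitoribosome structures their proteins sit in the large subunit, and the protein of Mrps36 is now known as a component of the 2-oxoglutarate dehydrogenase complex.

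Mrpl51 encodes a large-subunit protein that bacterial ribosomes lack, and it had the smallest p of the members. It was at 8.60, 10.07, 8.40, 8.18 and 10.16 in BA OBCs and at 8.58, 7.56, 7.14, 8.0 and 6.28 in control OBCs. BA replicates 2 and 5 stood far above the rest, and the groups overlapped through control replicate 1. The difference was 1.57 ± 0.51 (SE), or 2.97-fold, with an unadjusted limma p of 0.012 and an adjusted p of 0.477. This value depends on the probe set. The one used is numbered among probe sets of chromosome 2 (19 of its 20 named neighbours), although the gene lies on chromosome 6. The other Mrpl51 probe set, numbered among those of chromosome 6, was at 6.61, 6.82, 7.29, 6.63 and 7.50 in BA and 6.68, 6.81, 6.03, 7.64 and 6.10 in control. There the groups overlapped widely and the difference was 0.32.

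The members with the next smallest p among those higher in BA were Mrps25, Mrpl52, Mrpl49, Mrpl23 and Mrpl24. Mrps25, a small-subunit protein without a bacterial counterpart, was at 5.83, 6.00, 6.31, 6.41 and 8.11 in BA and 5.47, 5.29, 5.79, 6.28 and 5.47 in control. All BA arrays lay above the control median, 1 of them, BA replicate 5, far above the others. The difference was 0.87 ± 0.40 (SE) with all arrays, and 0.48 without BA replicate 5. That array also had the highest mean of pan-haematopoietic and of neutrophil markers, as given further on.

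Mrpl52, another large-subunit protein particular to mitochondria, was at 7.75, 7.78, 8.16, 8.72 and 8.28 in BA and 6.14, 7.29, 6.69, 8.95 and 6.72 in control. Only control replicate 4 reached the BA range, and it lay above it. Mrpl49, likewise a large-subunit protein without a bacterial counterpart, was at 7.79, 7.37, 7.38, 7.14 and 7.30 in BA and 7.16, 7.09, 6.40, 7.29 and 7.19 in control. Here BA replicate 4 alone lay among the controls. The differences were 0.98 ± 0.46 for Mrpl52 and 0.37 ± 0.18 for Mrpl49 (SE), each with an adjusted limma p of 0.53. That of Mrpl49 was 0.21 without control replicate 3.

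Mrpl23 encodes the counterpart of a bacterial protein that lines the exit of the ribosome's protein tunnel. It was at 8.81, 7.89, 7.61, 8.54 and 8.09 in BA and 5.68, 7.42, 8.28, 8.30 and 5.27 in control. The BA arrays lay close together, while the controls comprised a low pair, replicates 1 and 5, and 3 arrays at or near the BA range. A second Mrpl23 probe set was within 0.1 of these values on every array and gave a difference of 1.18, against 1.20 for the one used. That second set is numbered among probe sets of chromosome 2 (19 of its 20 named neighbours), although the gene lies on chromosome 7. Without control replicate 5 the difference of the set used was 0.77. Mrpl24, whose bacterial counterpart also sits at the tunnel exit, was at 6.68, 8.82, 9.02, 8.31 and 8.85 in BA and 7.59, 6.88, 6.94, 7.09 and 8.52 in control. BA replicate 1 was the lowest array of all 10, so every control array lay inside the BA range. Control replicate 5 also lay among the other BA arrays, and the difference of 0.93 ± 0.47 (SE) rested on the remaining arrays.

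Among the members lower in BA, Mrpl9 had the smallest p. Its protein is the counterpart of a bacterial large-subunit protein at the base of a side protuberance. It was at 6.86, 6.83, 6.08, 6.74 and 6.12 in BA and 7.59, 7.10, 6.97, 6.96 and 6.44 in control. Every control array except replicate 5 lay above all BA arrays. The difference was -0.49 ± 0.23 (SE), with an adjusted limma p of 0.53. Mrps2, a small-subunit protein of bacterial descent, had the tightest values of all members, with 6.91, 6.90, 6.83, 6.55 and 6.71 in BA and 6.79, 6.95, 6.92, 7.01 and 7.01 in control. All BA arrays lay below the control median, by little, and its difference of -0.16 had a 95% interval of -0.37 to 0.06 and was -0.10 without BA replicate 4.

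The other 4 of this kind overlapped more. Mrps21 was at 5.81, 7.98, 8.92, 8.81 and 8.37 in BA and 8.95, 8.51, 8.70, 8.06 and 10.16 in control. A single low BA array and a single high control array stood out, and its difference of -0.90 was the most negative of the members with all arrays. With BA replicate 1 left out it was -0.36, and with control replicate 5 left out -0.58. Mrps15, a primary rRNA-binding protein in bacteria, was at 6.39, 7.23, 7.01, 6.97 and 5.59 in BA and 8.29, 8.17, 6.09, 6.87 and 6.84 in control. Mrpl45, which faces the tunnel exit and ties the ribosome to the inner membrane, was at 6.34, 5.71, 6.10, 5.63 and 5.92 in BA and 6.28, 6.26, 6.42, 6.05 and 5.78 in control. Mrps34, a mitochondria-specific protein needed for a stable small subunit, was at 6.95, 7.34, 6.83, 6.57 and 7.45 in BA and 7.92, 6.80, 7.43, 7.29 and 7.10 in control. The differences of the last 3 were -0.61, -0.22 and -0.28, all within the spread between arrays. That of Mrps15 was -0.35 without BA replicate 5 or control replicate 1, that of Mrpl45 was -0.14 without BA replicate 4, and that of Mrps34 was -0.13 without control replicate 1.

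**Figure D4:**
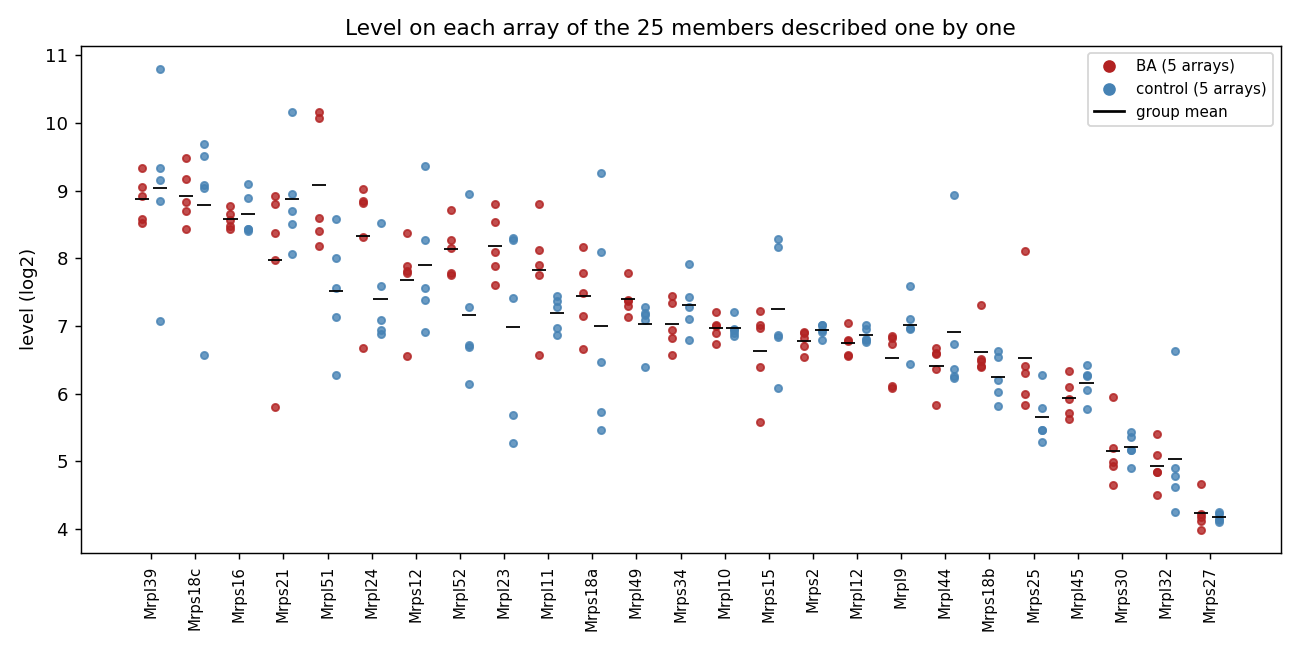
Log2 level on each array (points) and group mean (line) of 25 members, BA left of control, ordered by mean level over all 10 arrays. In Mrpl51 and Mrps25 the BA mean lies above the control mean, in Mrps21 below it, and in every gene the points of the groups overlap; single arrays stand apart in Mrpl44, Mrpl32 and Mrps18c.

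The stalk of the ribosome, which recruits the translation factors that act as GTPases, is built on Mrpl10 and Mrpl11 and carries Mrpl12. Mrpl10 was at 6.90, 7.00, 7.01, 6.74 and 7.21 in BA and 6.95, 6.86, 7.21, 6.96 and 6.90 in control, and its difference was -0.004 with a 95% interval of -0.25 to 0.24. Mrpl12 was at 6.80, 6.58, 6.78, 7.04 and 6.56 in BA and 7.02, 6.77, 6.96, 6.80 and 6.81 in control, and its difference was -0.12 with an interval of -0.37 to 0.13. For both, then, a 2-fold difference in either direction lay outside the interval. Mrpl11 was at 8.81, 6.57, 8.12, 7.75 and 7.90 in BA and 7.37, 7.28, 6.87, 7.45 and 6.97 in control. Its BA replicate 2 was the lowest array and the other BA arrays lay above all controls, which gave a difference of 0.64 ± 0.34 (SE) and an interval of -0.12 to 1.40. Without BA replicate 1 its difference was 0.40.

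Mrps12 encodes the counterpart of the bacterial protein at the decoding centre, where codon and anticodon meet. It was at 7.79, 8.38, 7.82, 6.56 and 7.89 in BA and 6.91, 7.38, 7.57, 8.27 and 9.36 in control, with a difference of -0.21 ± 0.46 (SE). Without control replicate 5, its highest array, the difference was 0.16. Mrpl44, which has the fold of an RNase III enzyme, was at 6.60, 6.68, 5.83, 6.36 and 6.59 in BA and 6.26, 6.24, 8.94, 6.73 and 6.36 in control. Control replicate 3 alone stood apart, and without it the difference of -0.49 became 0.01.

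Mammals have 3 genes for the counterpart of a single bacterial protein, bS18, and their products take different places in the ribosome. Mrps18a was at 7.15, 8.17, 7.49, 6.66 and 7.79 in BA and 5.73, 9.27, 8.10, 6.47 and 5.46 in control. Mrps18b was at 6.41, 7.31, 6.40, 6.51 and 6.48 in BA and 6.63, 6.21, 6.54, 5.82 and 6.02 in control. Mrps18c was at 8.43, 9.18, 8.70, 8.84 and 9.49 in BA and 9.04, 9.52, 9.69, 9.09 and 6.58 in control. The paralogues had unlike patterns over the arrays, with a wide control spread in Mrps18a, a single high BA array in Mrps18b and a single low control array in Mrps18c. Their differences were 0.45 ± 0.68, 0.38 ± 0.21 and 0.14 ± 0.53 (SE). That of Mrps18a ran from 0.06 without control replicate 5 to 1.01 without control replicate 2, that of Mrps18b was 0.21 without BA replicate 2, and that of Mrps18c was -0.41 without control replicate 5.

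Set against the levels of all genes on these arrays, the members stood in the upper part. Their median lay at the 71.2 percentile, 35 of 77 were among the top 25% of genes, 57 were above the median and 5 were in the bottom 25%. A probe set's level also depends on its probes, so these places are no measure of abundance between genes. Mrpl39, which has the fold of a tRNA synthetase, stood highest at the 94.99 percentile, followed by Mrps18c (94.5) and Mrps16 (93.3), a small-subunit protein of bacterial descent. Mrps16 was at 8.78, 8.65, 8.48, 8.43 and 8.57 in BA and 8.44, 8.41, 9.10, 8.43 and 8.90 in control, and Mrpl39 was at 8.58, 8.92, 9.05, 8.53 and 9.34 in BA and 9.16, 9.33, 7.08, 8.85 and 10.80 in control. The BA arrays of Mrpl39 lay between its lowest and its highest control array.

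At the low end stood Mrps27, a pentatricopeptide repeat protein, at the 8.10 percentile, below Mrpl32 (17.5) and Mrps30 (20.95). Mrps27 was at 4.18, 4.66, 4.12, 4.22 and 3.99 in BA and 4.26, 4.11, 4.22, 4.13 and 4.15 in control. Mrpl32, whose protein is cut by a mitochondrial protease before it joins the large subunit, was at 4.50, 4.84, 5.40, 5.10 and 4.85 in BA and 4.90, 4.62, 6.63, 4.25 and 4.78 in control. Mrps30 was at 4.99, 5.96, 5.20, 4.65 and 4.94 in BA and 5.44, 5.17, 5.36, 4.91 and 5.17 in control. In all 3 the groups overlapped, and only control replicate 3 of Mrpl32 stood apart. Detection calls were not used here, so whether these low values exceed background was not judged.

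The members varied much between arrays of 1 group. The SD within groups had a median of 0.50 over the members, against 0.24 over all genes, 0.33 over genes above the median level, 0.53 over 79 respiratory chain subunit genes and 0.21 over 61 cytosolic ribosomal protein genes. It ran from 0.12 in Mrps2 to 1.63 in Mrps26, with 12 members under 0.25 and 10 over 1. Members with a bacterial counterpart had a median SD of 0.42 and those particular to mitochondria 0.69. In 13 members the highest and lowest of the 10 arrays lay more than 3 apart. The shares of all genes past these bounds were not counted, so these counts are not shown to be particular to the members.

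The 3 members with the largest SD within groups, Mrps26, Mrps33 and Mrpl41, were picked out after their values were seen. Mrps26, a small-subunit gene, was at 5.81, 6.29, 7.05, 8.61 and 7.51 in BA and 8.57, 5.75, 5.77, 10.13 and 5.86 in control, with high and low arrays in both groups. Mrpl41, a large-subunit gene, was at 6.32, 8.54, 9.43, 9.41 and 9.55 in BA and 9.22, 8.74, 9.26, 9.07 and 5.92 in control, so 1 array in each group was low and the other 8 lay together. Mrps33, a small-subunit gene, was at 6.76, 9.97, 9.07, 8.73 and 9.62 in BA and 8.64, 9.29, 6.29, 8.67 and 5.41 in control. Low arrays again occurred in both groups, and its difference of 1.17 had a 95% interval that included 0.

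The highest and lowest arrays were not the same from gene to gene. BA replicate 2 was the highest array of 11 members, and each of the other 9 arrays was the highest of 5 to 10. Control replicate 2 was the lowest array of 13 members, control replicate 5 of 12 and BA replicate 4 of 11, while each remaining array was the lowest of 5 to 8. For Mrps33 and Mrps36, genes with very uneven arrays, a second probe set gave the same pattern, as it did for Mrpl23 above. The second Mrps33 probe set was at 6.84, 9.44, 8.73, 8.35 and 9.22 in BA and 8.23, 8.75, 6.09, 8.29 and 5.54 in control. For Mrps36 control replicate 3 stood out in both sets, at 7.72 and 7.52, the other 4 control arrays being at 4.94 or below. Mrpl41 differed, its second set running from 6.03 to 7.30 over all 10 arrays. Probe sequences were not used here, so it was not examined whether sets of 1 gene share probes.

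Of the 85 member probe sets, 7 are numbered among probe sets of a chromosome other than the gene's own. Of these, 5 were the ones used, for Mrpl27, Mrpl41, Mrpl48, Mrpl51 and Mrps33, and the others were the second sets of Mrpl23 and Mrps36. Probe set positions are not given in the sources used here. With the gene's own-chromosome probe sets in their place (76 genes, Mrpl48 having none), 42 members were higher in BA, the median difference was 0.04 and 0 passed the adjusted threshold. The genes themselves are spread over 17 chromosomes, with 11 on chromosome 11 and 8 on chromosome 17.

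Differences were also read by promoter motif, as a description. The median difference was 0.03 in the 12 members with the ETS motif and 0.04 in the 56 without it. It was 0.18 in the 12 with the YY1 motif and 0.02 in the 56 without it. It was -0.13 in the 8 with the NRF1 motif and 0.07 in the 60 without it. These medians all lay within the range between the members' quartiles except that of the NRF1 group, which was just below the lower quartile. Means were higher in BA in 6 of 12 members with the ETS motif, 8 of 12 with YY1 and 2 of 8 with NRF1. Without each motif they were higher in 31 of 56, 29 of 56 and 35 of 60. Of the members with NRF1 sites shown above, Mrpl9, Mrpl10, Mrpl32 and Mrpl39 had lower means in BA, none past the threshold, and Mrps18b a higher one. The differences of Mrpl10, Mrpl32 and Mrpl39 changed sign under some alternatives.

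A list of nuclear regulators of mitochondrial genes, factors that bind these motifs among them, had 13 measured genes. Of these 8 were higher in BA, with a median difference of 0.14 and 0 past the adjusted threshold. At an unadjusted p under 0.05 were 2 of the 13 (15.4%), against 9.40% of all genes. They were Pprc1, a coactivator of the PGC-1 family, and Gabpb1, the partner subunit of the ETS factor GABP. Pprc1 was at 6.62, 7.19, 7.38, 6.84 and 7.21 in BA and 6.37, 6.26, 6.51, 6.90 and 6.56 in control, with a difference of 0.53 ± 0.17 (SE). Gabpb1 was at 8.35, 5.84, 6.10, 7.44 and 6.61 in BA and 5.14, 6.04, 5.60, 6.43 and 5.72 in control, with a difference of 1.08 ± 0.45 (SE). In both genes the groups overlapped, and the adjusted limma p was 0.47 for Pprc1 and 0.51 for Gabpb1. The factors that bind DNA differed in both directions, by 0.59 for Gabpa, 0.26 for Myc, 0.23 for Yy1 and 0.14 for Nrf1, and by -0.16 for Mycn, -0.14 for Max and -0.13 for Esrra. Ppargc1a, which encodes PGC-1 alpha, was at the 13.5 percentile with a difference of -0.04.

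Other genes of mitochondrial translation likewise had no call past the adjusted threshold in any list. Of the subunits that the naming rule leaves out, 4 of 5 were measured, and Ptcd3 had the largest difference of them, 1.29 ± 0.41 (SE). Ptcd3 was at 7.52, 6.80, 7.05, 5.48 and 7.13 in BA and 6.01, 6.15, 5.10, 5.70 and 4.57 in control, 4 BA arrays lying above all controls and BA replicate 4 among them. Its adjusted limma p was 0.47. Of 12 translation factors 6 were higher in BA, with a median of -0.02. Gfm1, an elongation factor that moves the ribosome along its message, was at 6.67, 7.11, 6.61, 7.24 and 7.76 in BA and 6.89, 8.79, 8.34, 8.14 and 7.92 in control. Control replicate 1 alone lay within the BA range, and the difference was -0.94 ± 0.34 (SE) with an adjusted p of 0.48.

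Of the 21 measured genes for charging mitochondrial tRNAs, not all of them synthetases, 9 were higher in BA, with a median difference of -0.07. Of 26 genes of ribosome assembly and rRNA modification 11 were higher, with a median of -0.08. Mrm1, which methylates the large rRNA of the mitochondrion, was at 6.97, 7.06, 6.83, 6.77 and 6.86 in BA and 7.41, 7.06, 7.20, 7.43 and 7.35 in control. The groups touched at a single value, and the difference was -0.39 ± 0.10 (SE), with an adjusted limma p of 0.38. Fastkd2, an RNA-binding protein of large-subunit assembly, differed by 0.81 ± 0.26 (SE). Of 15 genes for copying and transcribing mitochondrial DNA 6 were higher, with a median of -0.06. Polg2, the accessory subunit of the mitochondrial DNA polymerase, differed by -0.73 and Tfam, which packages that DNA, by 0.51, neither past the threshold.

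The cytosolic ribosomal protein genes and the respiratory chain subunit genes were set beside the members. Of 61 cytosolic ribosomal protein genes 51 were higher in BA (83.6%), with a median difference of 0.20. In that list 17 genes (27.9%) had an unadjusted p under 0.05, against 9.40% of all genes, and 5 had groups wholly apart, against 1.67%. None passed the adjusted threshold, Rps10 having the smallest p with a difference of 0.53 ± 0.12 (SE). Of 79 respiratory chain subunit genes 45 were higher (57.0%), with a median of 0.06. In that list 9 genes (11.4%) had an unadjusted p under 0.05, near the 9.40% of all genes. The members, at 55.8% higher and a median of 0.05, were by these 2 measures nearer to the respiratory chain genes than to the cytosolic ribosome. Their share at an unadjusted p under 0.05 was 1.30%, below that of both lists. No test of the difference between the lists was made.

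**Figure D5:**
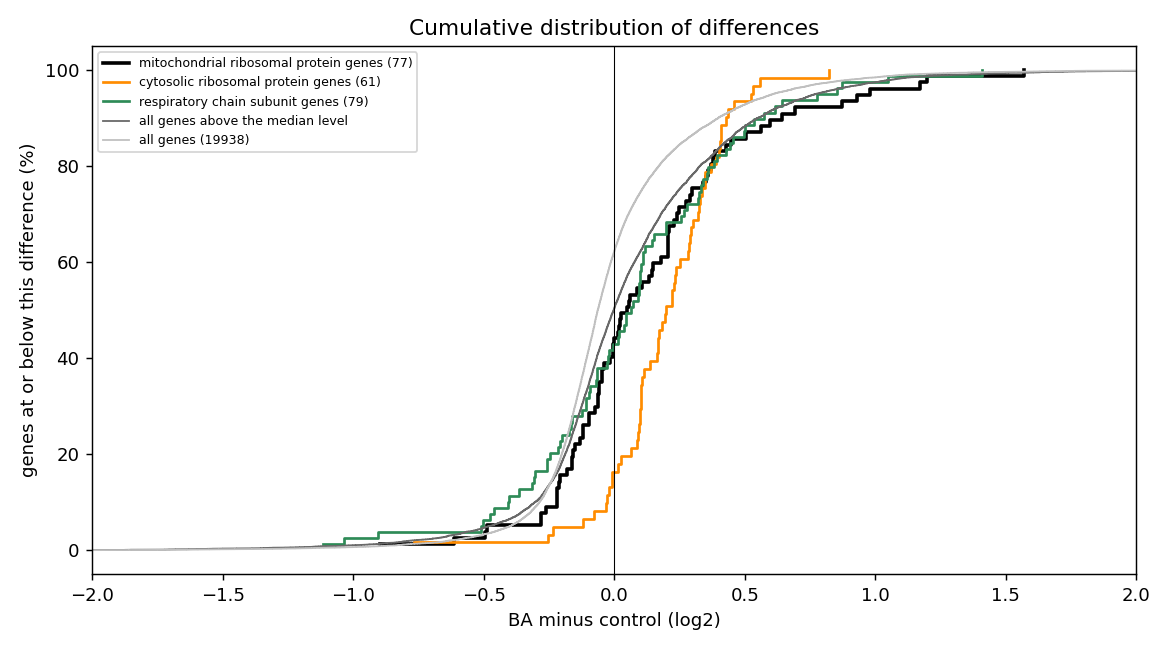
Cumulative share of genes (%) at or below each difference, BA minus control on the log2 scale, for the 77 members, 61 cytosolic ribosomal protein genes, 79 respiratory chain subunit genes, genes above the median level and all 19938 genes; differences beyond the axis are not drawn. The medians are 0.05, 0.20, 0.06, -0.002 and -0.06.

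Markers of other cell types differed between arrays. Most pan-haematopoietic and neutrophil markers had a higher mean in BA, and most erythroid markers a lower one. The mean of 14 pan-haematopoietic markers was 6.36 to 8.41 in BA and 5.92 to 6.99 in control. Of these markers 11 were higher and 3 lower in BA, with a median difference of 0.38. The mean of 13 neutrophil markers was 6.83 to 9.20 in BA and 6.18 to 8.15 in control. Of these 12 were higher and 1 lower, with a median of 0.80. Of all genes 37.9% were higher, and no marker of these lists passed the adjusted threshold. Ptprc, the gene for the blood-cell antigen CD45, was at 9.29 on BA replicate 5 and at 5.90 or below on the other 9 arrays. That array was the highest of 8 of the 77 members, among them Mrps25, and each other array of 5 to 11. The mean of 14 cell division genes was 6.67 to 7.25 in BA and 6.60 to 6.93 in control, 10 of them higher and 4 lower in BA, none past the adjusted threshold. At an unadjusted limma p under 0.05 were 3 of the 14 (21.4%), all higher, against 9.40% of all genes. In 2 of the 14 the groups lay wholly apart, against 1.67% of all genes. Of the bone markers, 8 osteoblast genes averaged 8.48 to 9.30 in BA and 9.16 to 9.71 in control, 2 of them higher and 6 lower in BA, none past the adjusted threshold. At an unadjusted limma p under 0.05 were 5 of the 8 (62.5%), all lower in BA, against 9.40% of all genes. In 2 of the 8 the groups lay wholly apart, against 1.67% of all genes. The differences ran from -1.25 for Col1a1 (9.40 ± 0.78 in BA and 10.65 ± 0.33 in control, SD, n = 5 each) over -0.01 for Ibsp and 0.03 for Sp7 to 0.47 for Alpl. Their levels were uneven, with Ibsp at the 99.97 percentile of genes, Col1a1 at 97.99 and Dmp1 at 56.6. The mean of 10 chondrocyte genes was 10.42 to 10.83 in BA and 10.14 to 10.75 in control. In BA 9 of these 10 were higher and 1 lower, with 0 at an unadjusted limma p under 0.05. The mean of 9 endothelial markers was 5.48 to 5.71 in BA and 5.47 to 6.11 in control, and Pecam1 was highest on control replicate 5 (6.94), the array with the lowest mean over the members. With both replicates 5 left out, 41 of 77 members were higher in BA, the median difference was 0.06 and 0 passed the adjusted threshold. With the haematopoietic marker mean of each array as a covariate, 48 of 77 members were higher and 0 passed. The part of such cells in single members' values was not tested beyond that.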

How the data were processed

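RNA of sorted OBCs was measured on 10 arrays, 5 BA and 5 control, 1 for each mouse, with groups taken from the sample titles. The authors deposited log2 values for 35557 probe sets, made with GCRMA per the submitters' processing notes, its version and any genome build not being given in the sources used here. The range of the values, 1.21 to 13.7, and the method gave the log base. Without scanner files or detection calls, signal over background is unknown, and the small number of arrays sets the precision. No 2 arrays shared more than 1.34% identical values.

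Genes were named from the platform annotation through the 21789 probe sets with 1 symbol, taking for each gene the set with the highest mean and filtering out no low values. Of the members, 8 had more than 1 probe set, and 1 further member probe set with several symbols was left out. The groups were compared with limma 3.58.1 (R 4.3.3; lmFit, eBayes, two-sided, no covariate) and Benjamini-Hochberg adjustment over all genes at 0.05, in a script tested on simulated data. Lists are described by counts and medians.

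Members named one by one were the 6 with the smallest p in each direction, the 3 highest and 3 lowest in level, and those with a set role (stalk, decoding centre, tunnel exit, RNase III fold, bS18). Of other lists up to 3 genes of smallest p, all nuclear regulators and the defining markers could be named. Mrps26, Mrps33, Mrps36, Mrpl41 and members named for their probe sets were chosen after their values were seen. Members, lists and motifs were chosen with earlier results of these data known. Promoter sequences are those of RefSeq. Only some of the matched sites are printed. Alternatives were other normalizations, a filter on low genes, other variance models and weights, averaged probe sets, a replicate block, a threshold of 0.10, 2 covariates, leaving out each array, and 2 added after seeing the data (own-chromosome probe sets, and both replicates 5 left out).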

Additional observations from a re-analysis of the deposited data

Results flagged for a closer look

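Single arrays stood far from the other 4 of their group, by the ratio of the gap to the group's range (0.71 is the 95% limit for 5 samples), in 9 of 56 groups of values described here. Chance gives about 1 in 20. On control replicate 3, Mrpl10 was at 7.21 (the others 6.86 to 6.96), Mrpl32 at 6.63 (4.25 to 4.90) and Mrpl44 at 8.94 (6.24 to 6.73), all high, while Mrpl49 was low at 6.40 (7.09 to 7.29). On control replicate 5, Mrps18c was low at 6.58 (9.04 to 9.69). Among BA arrays, Mrps18b was high on replicate 2 at 7.31 (6.40 to 6.51) and Mrps25 on replicate 5 at 8.11 (5.83 to 6.41). The mean over the 77 members was low on control replicate 5 at 6.57 (6.83 to 6.89), and the mean over small-subunit members was low on BA replicate 1 at 6.59 (6.95 to 7.06). Over all 77 members in both groups, 18 of 154 groups had such an array, 6 of them control replicate 3 and 4 of them BA replicate 2. The share over all genes was not counted, so such arrays are not shown to be particular to the members.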

How the results depend on the processing

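The count of members past the adjusted threshold was 0 under all 22 alternatives. The count over all genes was 1 in the comparison as reported. It was 0 with the replicate block, with only genes above the median level, with the haematopoietic covariate and without both replicates 5. It was 2 with the Xist covariate and 0 to 13 with each array left out in turn, the 13 being without BA replicate 4. The replicate block changed no other call. Same-numbered arrays had correlations of -0.10 to 0.11 in their deviations over genes, and 1 of 5 BA arrays correlated best with its own number, so the numbers were not taken as pairs.

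The share of all genes with groups wholly apart was 1.67% with all arrays and was not counted with arrays left out. The counts below are therefore not shown to be particular to the members. Members with groups wholly apart numbered 0 to 2 with each array left out and 1 without both replicates 5. They were Mrpl51 and Mrps2 without control replicate 1, Mrpl52 and Mrps25 without control replicate 4, Mrpl9 without control replicate 5 (also without both), Mrpl11 without BA replicate 2, and Mrpl17 and Mrpl49 without BA replicate 4. The median difference over members ran from 0.02 to 0.09, its distance from the median of all genes from 0.07 to 0.18, the large-subunit median from -0.02 to 0.07 and the small-subunit median from 0.07 to 0.24. Centring moved the median of all genes by 0.03.

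Of the 25 members described one by one, 15 kept their sign under every alternative run, and the lowest adjusted limma p of any of the 25 was 0.305. Mrps30 turned to 0.0048 with quantile normalization and 0.0303 with the haematopoietic covariate, Mrpl10 to 0.03 with centring and Mrps18c to -0.009 with array weights. With 1 array, or both replicates 5, left out, differences spanned -0.0825 to 0.0545 for Mrpl10, -0.29 to 0.30 for Mrpl32, -0.65 to 0.28 for Mrpl39, -0.675 to 0.0145 for Mrpl44, -0.46 to 0.16 for Mrps12, -0.14 to 0.037 for Mrps16, -0.025 to 1.01 for Mrps18a, -0.55 to 0.37 for Mrps18c, -0.0465 to 0.121 for Mrps27 and -0.27 to 0.0625 for Mrps30. Without both replicates 5, Mrpl39 was at 0.17 and Mrps12 at 0.11. The cause was not tested. The precision is that of 5 arrays a group at a median within-group SD of 0.50 among members, and signal over background was not judged.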
